A study of Oryctolagus cuniculus with 49 samples.

Results

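The cytosolic ribosomal protein genes were followed in the iris and ciliary body of New Zealand white rabbits, a laboratory breed, after the lens had been removed and an artificial intraocular lens put in its place. Genes were taken by symbol, as every large-subunit (RPL), small-subunit (RPS) and stalk (RPLP) symbol of the deposited table, which gave 65 of 12948 gene symbols. They comprise 37 RPL and 22 RPS genes, the stalk genes RPLP0 and RPLP1, and 4 paralogs (RPL7L1, RPL22L1, RPL26L1 and RPS27L). The values are FPKM (fragment counts divided by transcript length and by the mapped fragments in a library), summed here over the transcripts of a symbol. There were 3 operated libraries at 5 weeks, 3 operated at 6.5 weeks, 7 unoperated at 5 weeks, 6 operated at 6 months and 7 unoperated at 6 months. No other treatment, allele or agent is named for any group, and how long after surgery the eyes were taken is not stated in the labels. The 23 cornea samples of the series are not analysed here. Each iris sample has a title number of its own, but the labels do not say that it marks an animal, so p-values measure the spread between these samples only.

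Ribosomal proteins are the protein part of the particle that translates messenger RNA into protein. The large subunit joins amino acids and holds the stalk to which elongation factors bind, and the small subunit reads the messenger RNA. The messenger RNAs of ribosomal proteins start with a terminal oligopyrimidine (TOP) tract, through which the mTOR pathway and the RNA-binding protein LARP1 control their translation together. Ribosomal proteins left outside a ribosome are degraded, and a few of them, such as RPL5 and RPL11, bind the ubiquitin ligase MDM2. The iris and ciliary body hold pigmented and unpigmented epithelium, smooth muscle, stroma and vessels, all of which need ribosomes.

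The genes had the high levels that are known of this class: 22 of the 65 genes were among the 100 genes with the highest mean FPKM and 52 were among the first 500. The median gene of the set averaged 440 FPKM over the 26 libraries, against 11.9 FPKM for the median gene of the table. The most abundant were RPLP1, RPL23A and RPL10, whose group means lay between 1120 and 2288 FPKM. The least abundant by symbol were RPL21, RPS27L and RPL9, with group means of 5.22 to 14.2 FPKM. Defining markers of the tissue were present: all 7 pigment cell genes, 6 ciliary epithelium genes and 5 smooth muscle genes of the fixed lists that were measured had summed levels of at least 1211, 947 and 1146 FPKM in every library. Lens RNA varied strongly, and 8 libraries held over 1000 FPKM of the lens crystallin CRYAA (1 operated 5-week, 2 operated 6-month, 4 unoperated 5-week and 1 unoperated 6-month library).

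**Figure D1:**
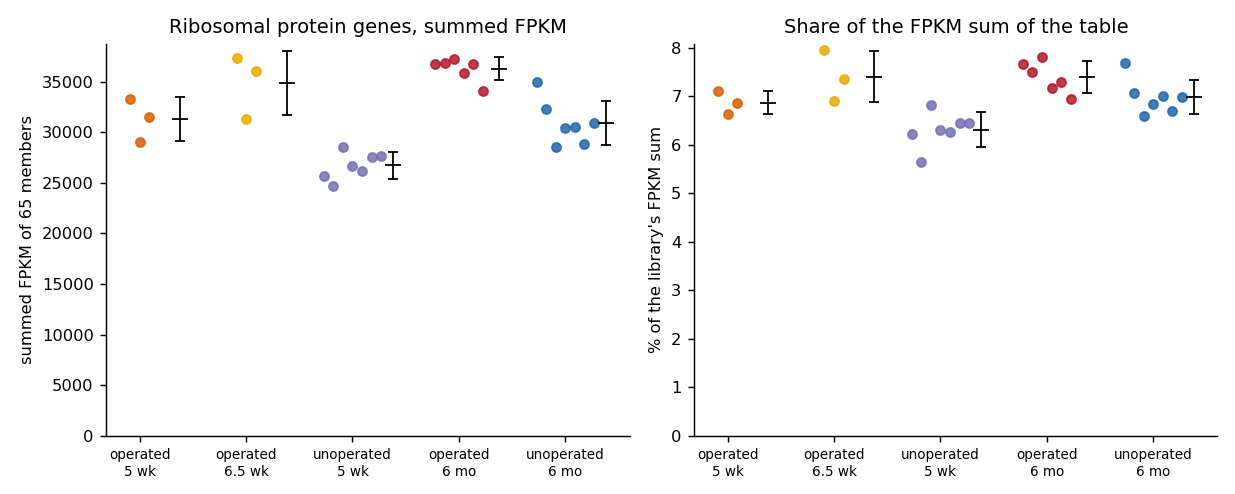
Summed FPKM of the 65 ribosomal protein genes (left) and their share of all FPKM in the library in percent (right), 1 point per library, with the group mean and SD beside the points. The summed FPKM of all 6 operated juvenile libraries (28990 to 37280) lay above all 7 unoperated 5-week libraries (24715 to 28553), while the shares of the 2 sets overlapped.

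The ribosomal protein genes together held more FPKM in operated than in unoperated eyes at both ages. At 6 months the summed FPKM was 36240 ± 1141 in operated eyes (SD, n = 6) and 30920 ± 2185 in unoperated eyes (SD, n = 7). The operated libraries ran from 34093 to 37205 and the unoperated ones from 28524 to 34970, so the groups overlapped through 1 unoperated library. In juveniles the 3 operated 5-week libraries had 33296, 28990 and 31525 FPKM and the 3 operated 6.5-week libraries 37280, 31249 and 36040, against 24715 to 28553 FPKM, with a median of 26621, in 7 unoperated 5-week libraries. No operated juvenile library was as low as an unoperated one. The sum of the whole table also differed between the groups, with 476369 to 504202 FPKM in operated 6-month, 437259 to 490542 in operated juvenile, 431241 to 456586 in unoperated 6-month and 412936 to 438564 in unoperated 5-week libraries. As a share of that sum, ribosomal protein genes took 7.40% ± 0.32 in operated and 6.98% ± 0.35 in unoperated eyes at 6 months (SD, n = 6 and 7). In juveniles the share was 6.87% ± 0.24 at 5 weeks and 7.41% ± 0.53 at 6.5 weeks in operated eyes (SD, n = 3 each), and 6.31% ± 0.36 in unoperated 5-week eyes (SD, n = 7). In both comparisons the shares overlapped. The summed level of the large-subunit symbols (RPL and RPLP) was 1.84 to 1.98 times that of the RPS symbols in every library, paralogs included on both sides, and operated and unoperated eyes overlapped in this ratio at 6 months (1.844 to 1.944 against 1.837 to 1.909).

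The first comparison asked what differed between operated and unoperated eyes at 6 months. Of the 65 genes, 30 rose and 1 fell (limma on log2 of FPKM + 0.5, Benjamini-Hochberg adjusted p under 0.05 over all 12948 genes), while 16.0% of all genes rose and 30.1% fell. The median change was 0.21 on the log2 scale, 1.16-fold, against -0.11 for all genes, and 58 of 65 genes had a positive value. Called rises were small, from 1.12-fold to 1.40-fold. They fell on both subunits: 19 of 39 RPL and stalk genes and 11 of 22 RPS genes rose. In 9 genes, among them RPL4, RPL6, RPL8, RPL11, RPL12, RPLP1, RPS15A and RPS24, every operated library was above every unoperated one, which held for 8.15% of all genes. In bulk tissue, fewer cells of a type and less RNA per cell cannot be told apart.

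RPL8, a protein beside the catalytic centre of the large subunit, had 534, 556 and 584 FPKM (lowest, median and highest) in operated 6-month eyes, against 415, 450 and 527 FPKM in unoperated ones. The groups did not overlap, and the log2 change was 0.27 (SE 0.064, adjusted p = 0.00114 by limma). RPL10A, which forms the mobile L1 stalk, had 525.6, 611 and 726 FPKM in operated eyes and 415, 465 and 572 FPKM in unoperated eyes. It overlapped through 1 unoperated library and rose by 0.39 (SE 0.077, adjusted p = 0.000218 by limma). RPL13, a large-subunit protein, had the largest called rise at this age under its own symbol, 0.48 (SE 0.091, adjusted p = 0.000127 by limma). It had 222, 253 and 328 FPKM in operated and 172, 184 and 223 FPKM in unoperated eyes. Its ranges touched, since the highest unoperated library exceeded the lowest operated one. A locus-numbered copy, described as the same protein, held 41.6% of the joint FPKM of RPL13. With that copy added the rise was 0.377 (adjusted p = 0.000143 by limma), below RPL12 at 0.445 and RPL35 at 0.444. RPS7, a small-subunit protein that can also bind MDM2, had 880, 971 and 991 FPKM in operated and 765, 817 and 940 FPKM in unoperated eyes, and rose by 0.22 (SE 0.062, adjusted p = 0.00562 by limma). Each of these 4 calls held with any single library left out, but with libraries scaled to an equal FPKM sum the calls for RPL8 and RPS7 were lost (adjusted p = 0.0699 and 0.34 by limma).

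The stalk genes rose more than the median gene of the set. RPLP1 had 2060, 2328 and 2485 FPKM in operated 6-month eyes, against 1425, 1633 and 2000 FPKM in unoperated eyes, with no overlap and a log2 change of 0.48 (SE 0.071, adjusted p = 8.99e-06 by limma). RPLP0, the protein that anchors the stalk, had 685, 964 and 1048 FPKM in operated and 627, 694 and 720 FPKM in unoperated eyes. It rose by 0.38 (SE 0.082, adjusted p = 0.000509 by limma), and the lowest operated library lay within the unoperated range. RPL4, which lines the exit tunnel of the large subunit, was the steadiest gene of the set, with 695, 762 and 807 FPKM in operated and 584, 634 and 651 FPKM in unoperated eyes. It rose by 0.29 (SE 0.049, adjusted p = 3.85e-05 by limma) without overlap.

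Other core proteins followed with smaller values. RPL11, which carries the 5S ribosomal RNA with RPL5, had 857 to 872 FPKM in operated and 698 to 809 FPKM in unoperated 6-month eyes and rose by 0.19 (SE 0.058, adjusted p = 0.00964 by limma). RPS3, at the entry of the messenger RNA channel, had 727 to 908 FPKM in operated and 641 to 748 FPKM in unoperated eyes and rose by 0.24 (SE 0.064, adjusted p = 0.00321 by limma). RPL10, which joins the large subunit last, had 1010 to 1669 FPKM in operated and 1140 to 1351 FPKM in unoperated eyes. Its log2 change of 0.23 had an adjusted p of 0.0489 by limma. Leaving out any 1 of 9 of the 13 libraries raised that p to between 0.0646 and 0.121. Over all 13 such fits the adjusted p ran from 0.000713 to 0.121 by limma and the log2 change from 0.183 to 0.328. Operated replicates 4 and 6 had 1224 and 1010 FPKM, against 1560 to 1669 in the other operated 6-month libraries. RPL3, near the catalytic centre, did not pass, with 681 to 809 FPKM in operated and 574 to 754 FPKM in unoperated eyes (log2 change 0.11, adjusted p = 0.19 by limma).

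Of the 4 paralogs 0 rose at 6 months, and RPL7L1 was the 1 with an unadjusted p under 0.05 by limma. RPL7L1, a relative of RPL7 known from assembly of the large subunit, fell, the 1 gene of the set to do so, with 39.9, 50.98 and 53.4 FPKM in operated and 47.6, 56.1 and 62.0 FPKM in unoperated eyes. Its groups overlapped, and the log2 change was -0.21 (SE 0.069, adjusted p = 0.0182 by limma). Without operated replicate 4 the adjusted p was 0.0568, without operated replicate 6 it was 0.0603, and with median-ratio scaling it was 0.169. Those replicates had the lowest operated values, 42.9 and 39.9 FPKM, against 50.6 to 53.4 in the other operated libraries. A fit without both was not made. RPL22L1, RPL26L1 and RPS27L had log2 changes of 0.10, 0.10 and 0.27 with adjusted p of 0.678, 0.41 and 0.455 by limma. The small value of RPL22L1 came from a split group. Operated replicates 4 and 6 had 42.8 and 39.2 FPKM, below every unoperated library (53.6 to 83.5 FPKM). The other operated libraries had 84.8 to 103 FPKM, above every unoperated one. With 1 library left out its log2 change ran from -0.014 to 0.263. RPS27L, a paralog of RPS27, ranged from 7.90 to 12.2 FPKM in operated and from 4.24 to 13.5 FPKM in unoperated eyes, a spread wider than the difference of the groups.

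**Figure D2:**
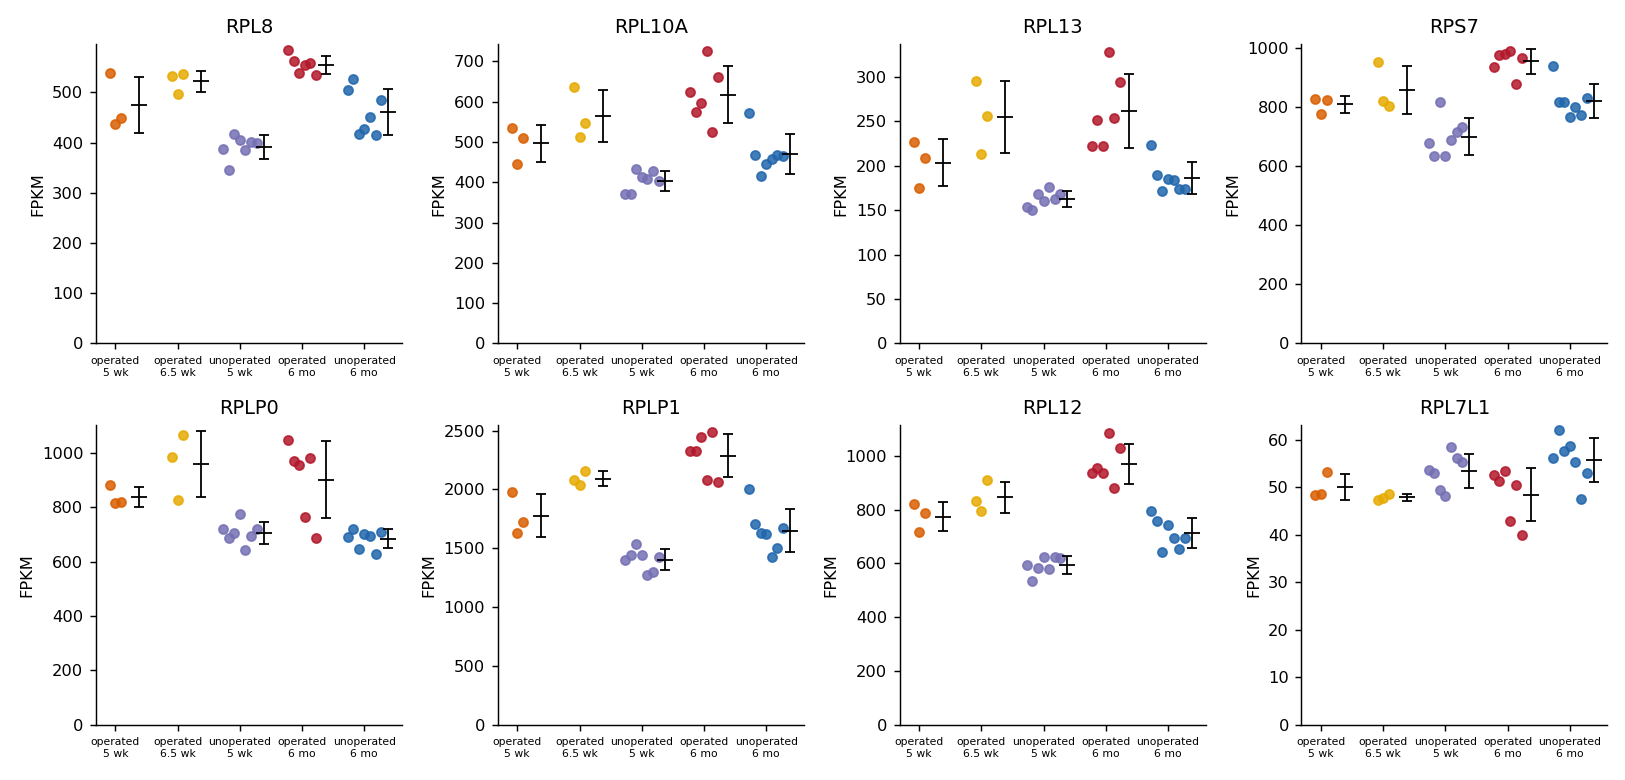
FPKM of 8 ribosomal protein genes, 1 point per library, with the group mean and SD beside the points, on axes that start at 0. RPL8, RPLP1 and RPL12 are higher in every operated 6-month library than in every unoperated one, RPL10A, RPL13, RPS7 and RPLP0 overlap, and RPL7L1 lies lower in operated eyes with overlap.

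The same comparison in juveniles set the mean of the operated 5-week and 6.5-week eyes against unoperated 5-week eyes. There were no unoperated 6.5-week eyes, so surgery and the greater age of the operated 6.5-week eyes cannot be told apart in it. Here 44 of 65 genes rose and 0 fell, with 16.5% of all genes rising and 20.8% falling. For the 0 that fell, no member with a negative value had an unadjusted p under 0.05 by limma either. The median change was 0.31, 1.24-fold, against -0.06 for all genes, and 62 of 65 genes had a positive value. The rises came from 28 of 39 RPL and stalk genes and 16 of 22 RPS genes. Of the 4 paralogs 0 passed, and 2 had an unadjusted p under 0.05 by limma. In 15 genes every operated library was above every unoperated one, against 7.83% of all genes. The libraries of the 2 ages are different ones: 28 genes rose at both, which is 93.3% of those that rose at 6 months and 63.6% of those that rose in juveniles. The share of all genes that rose at both is not given here, so this overlap is a description and no trait of the set. Without the 8 libraries high in CRYAA, 4 of them juvenile controls, 11 genes rose in juveniles and 20 at 6 months (9.91% and 14.4% of all genes), and the median change was 0.25 and 0.16.

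RPL8 had 539, 436 and 449 FPKM in operated 5-week eyes and 532, 497 and 536 FPKM in operated 6.5-week eyes, against 344, 399 and 417 FPKM (lowest, median and highest) in unoperated 5-week eyes. Every operated library was higher, and the log2 change was 0.35 (SE 0.064, adjusted p = 0.000135 by limma). RPL10A had 534, 446 and 509 FPKM at 5 weeks and 636, 511 and 547 FPKM at 6.5 weeks in operated eyes, against 370, 408 and 433 FPKM in unoperated eyes, again without overlap, and rose by 0.39 (SE 0.077, adjusted p = 0.000319 by limma). RPL13 had 227, 175 and 208 FPKM at 5 weeks and 295, 214 and 256 FPKM at 6.5 weeks in operated eyes, against 150, 162 and 176 FPKM in unoperated eyes. The lowest operated library lay at the top of the unoperated range, and the log2 change was 0.48 (SE 0.091, adjusted p = 0.000192 by limma). RPS7 had 826, 776 and 825 FPKM at 5 weeks and 953, 820 and 805 FPKM at 6.5 weeks in operated eyes, against 633, 690 and 816 FPKM in unoperated eyes, where 1 library reached into the operated range. It rose by 0.26 (SE 0.062, adjusted p = 0.00217 by limma), and relative to the median gene of the set its value was -0.06.

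RPLP1 had 1982, 1627 and 1720 FPKM at 5 weeks and 2084, 2035 and 2157 FPKM at 6.5 weeks in operated eyes, against 1269, 1429 and 1534 FPKM in unoperated 5-week eyes, with no overlap. Its log2 change of 0.46 (SE 0.071, adjusted p = 1.68e-05 by limma) was close in size to that at 6 months. RPLP0 had 882, 817 and 818 FPKM at 5 weeks and 985, 828.9 and 1065 FPKM at 6.5 weeks in operated eyes, against 643, 706 and 776 FPKM in unoperated eyes, and rose by 0.34 (SE 0.082, adjusted p = 0.00184 by limma). RPL4 rose by 0.33 (SE 0.049, adjusted p = 7.91e-06 by limma) and RPL10 by 0.40 (SE 0.092, adjusted p = 0.0014 by limma), both without overlap of the groups. RPL11, RPL3 and RPS3 rose by 0.27, 0.27 and 0.22 (adjusted p = 0.000567, 0.00387 and 0.00754 by limma), though relative to the median gene of the set their values were -0.039, -0.045 and -0.088. RPL7L1 had 48.4, 48.7 and 53.2 FPKM at 5 weeks and 47.3, 47.7 and 48.6 FPKM at 6.5 weeks in operated eyes, against 48.2, 53.7 and 58.5 FPKM in unoperated eyes, a log2 change of -0.12 (SE 0.069, adjusted p = 0.167 by limma).

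The operated 6.5-week eyes had somewhat higher ribosomal protein values than the operated 5-week eyes, but 0 of 65 genes passed the test in either direction. In this comparison 0.00772% of all genes rose and 0.00772% fell, 1 gene each. At an unadjusted p under 0.05 there were 11 genes of the set, and 54 of 65 values were positive, with a median of 0.13. Against unoperated 5-week eyes, the operated 6.5-week eyes alone gave 44 rises (14.4% of all genes rose) and the operated 5-week eyes alone gave 22 (11.7% of all genes rose). The age of the operated juveniles and any difference in time since surgery cannot be told apart.

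**Figure D3:**
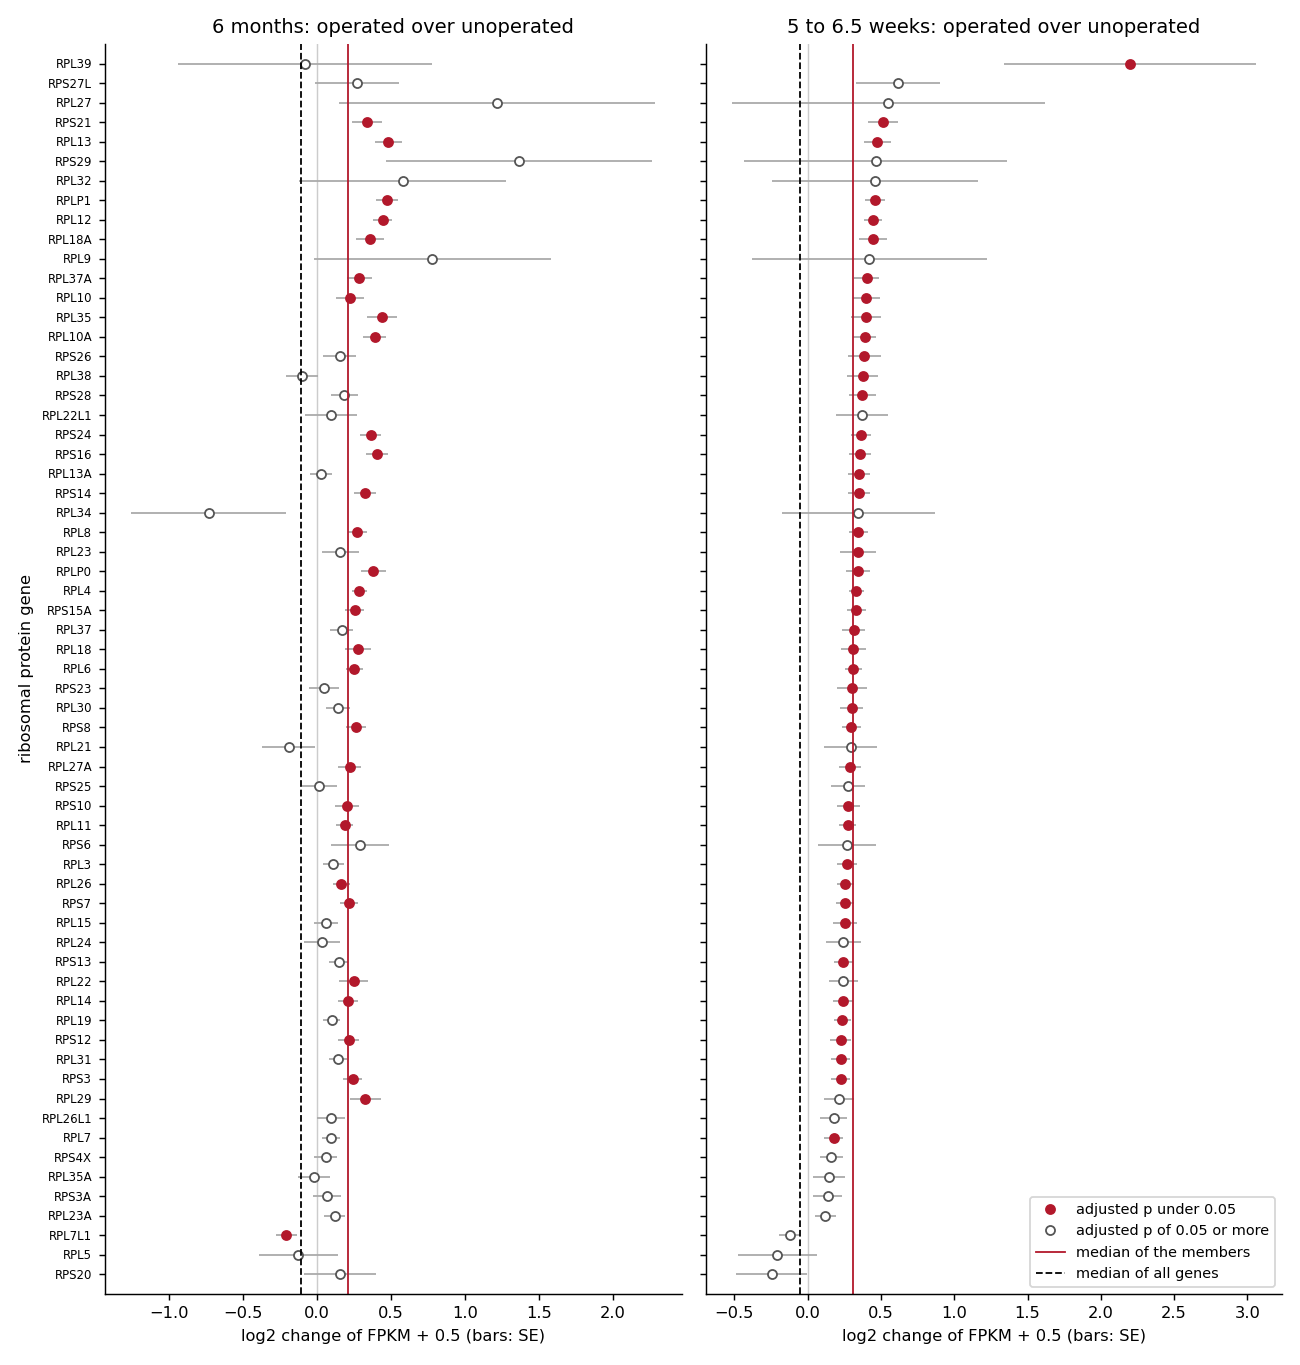
Log2 change of 63 of the 65 genes, operated over unoperated, with its SE, at 6 months (left) and in juveniles (right), ordered by the juvenile value. Filled points passed the test (30 of those drawn at 6 months, 42 in juveniles), the solid line is the median of the 65 genes (0.21 and 0.31) and the dashed line that of all genes (-0.11 and -0.06).

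Whether surgery moved the genes differently at the 2 ages was tested directly. The juvenile side of this test includes operated 6.5-week eyes, which have no unoperated eyes of their age, so surgery and age are not fully separated in it. By the interaction term, 0 genes of the set passed in either direction, while 0.734% of all genes had a called positive term (the surgery value at 6 months above that in juveniles) and 0.355% a called negative one. At an unadjusted p under 0.05 there were 3 genes, among them RPL38 and RPL13A, with log2 differences of -0.47 (SE 0.15) and -0.32 (SE 0.107) and adjusted p of 0.147 and 0.176 by limma. With its locus-numbered copy added the value of RPL38 was -0.14 (adjusted p = 0.61 by limma). The median difference was -0.08, against -0.05 for all genes.

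Age was compared next. Unoperated 6-month eyes had higher values than unoperated 5-week eyes in 28 of 65 genes and lower values in 0, with 11.4% of all genes rising and 9.46% falling. For the lower direction, RPL5 was the 1 gene with a negative value and an unadjusted p under 0.05 by limma. The median change was 0.21, 1.16-fold, against 0.04 for all genes, though with libraries scaled to an equal median of the set it was -0.01 by construction. Every 6-month library was above every 5-week library in RPL3, RPL12, RPL38 and RPS10, which held for 4.26% of all genes. RPL3 rose most clearly among the fixed core genes, with 574, 665 and 754 FPKM at 6 months and 456, 525 and 572 FPKM at 5 weeks (log2 change 0.36, SE 0.067, adjusted p = 0.000566 by limma). RPL8, RPS7 and RPL11 rose by 0.23, 0.23 and 0.21 (adjusted p = 0.00882, 0.00755 and 0.00936 by limma), and at an equal FPKM sum the call of RPS7 was lost (adjusted p = 0.0561 by limma). Relative to the median gene of the set RPL11 had a value of -0.02 with age. RPLP0 had 627, 694 and 720 FPKM at 6 months and 643, 706 and 776 FPKM at 5 weeks, with a log2 change of -0.05 (SE 0.078, adjusted p = 0.718 by limma). RPLP1, its partner in the stalk, rose by 0.23 (SE 0.069, adjusted p = 0.0184 by limma, and 0.0669 at an equal FPKM sum), and RPL4 had a value of 0.10 with an adjusted p of 0.134 by limma. Without the 8 libraries high in CRYAA, 3 genes rose with age in unoperated eyes (2.15% of all genes), though the median change was 0.21 as with all libraries. With lens and photoreceptor levels as covariates, 8 rose (5.68% of all genes).

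In operated eyes, 9 genes were higher at 6 months than in juveniles (RPL12, RPL22, RPL27A, RPL35, RPLP1, RPS3, RPS7, RPS10 and RPS24) and 0 were lower, with 5.88% of all genes rising and 9.78% falling. For the lower direction, 0 genes of the set with a negative value had an unadjusted p under 0.05 by limma. The median change was 0.12, against -0.01 for all genes. This count depended on single libraries: it was 1 without operated 5-week replicate 2, 2 without operated 6.5-week replicate 2 or operated 6-month replicate 4, 3 without operated 6-month replicate 6, 5 without operated 6.5-week replicate 3 and 14 without operated 6.5-week replicate 1. With only the operated groups in the fit, 0 genes rose (1.61% of all genes).

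FPKM measures a gene against the rest of its library, so the rises depend on what libraries are made equal in. Scaled to an equal FPKM sum, 11 genes rose and 1 fell at 6 months (11.1% and 47.3% of all genes), and 26 rose and 1 fell in juveniles (11.9% and 36.1% of all genes). With age, 14 rose and 0 fell in unoperated eyes under that scaling (6.76% and 12.8% of all genes), and RPL12 alone rose and 0 fell in operated eyes (2.54% and 15.4% of all genes). The median of all genes then moved to -0.24 at 6 months and -0.18 in juveniles, and the median of the set to 0.07 and 0.18. With median-ratio scaling, which sets the typical gene nearly equal, 41 and 47 genes rose with surgery at 6 months and in juveniles (21.5% and 18.3% of all genes). Each scaling moves all genes of a library by 1 factor, so the distance between the 2 medians is nearly fixed by construction. It was 0.31 to 0.32 at 6 months and 0.35 to 0.37 in juveniles over the 6 scalings. With age in unoperated eyes that distance was 0.16 to 0.17, and in operated eyes 0.13 to 0.14. RPLP1, RPL10A, RPL13, RPLP0, RPL4 and RPL12 rose with surgery at both ages also at an equal FPKM sum, with RPLP1 at 0.33 in both (adjusted p = 0.00022 and 0.000265 by limma). RPL7L1 was the 1 gene that fell under that scaling at either age. The 6-month calls of RPL8, RPS7, RPL11, RPS3 and RPL10 and the juvenile calls of RPS7, RPL3 and RPS3 were lost under it.

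**Figure D4:**
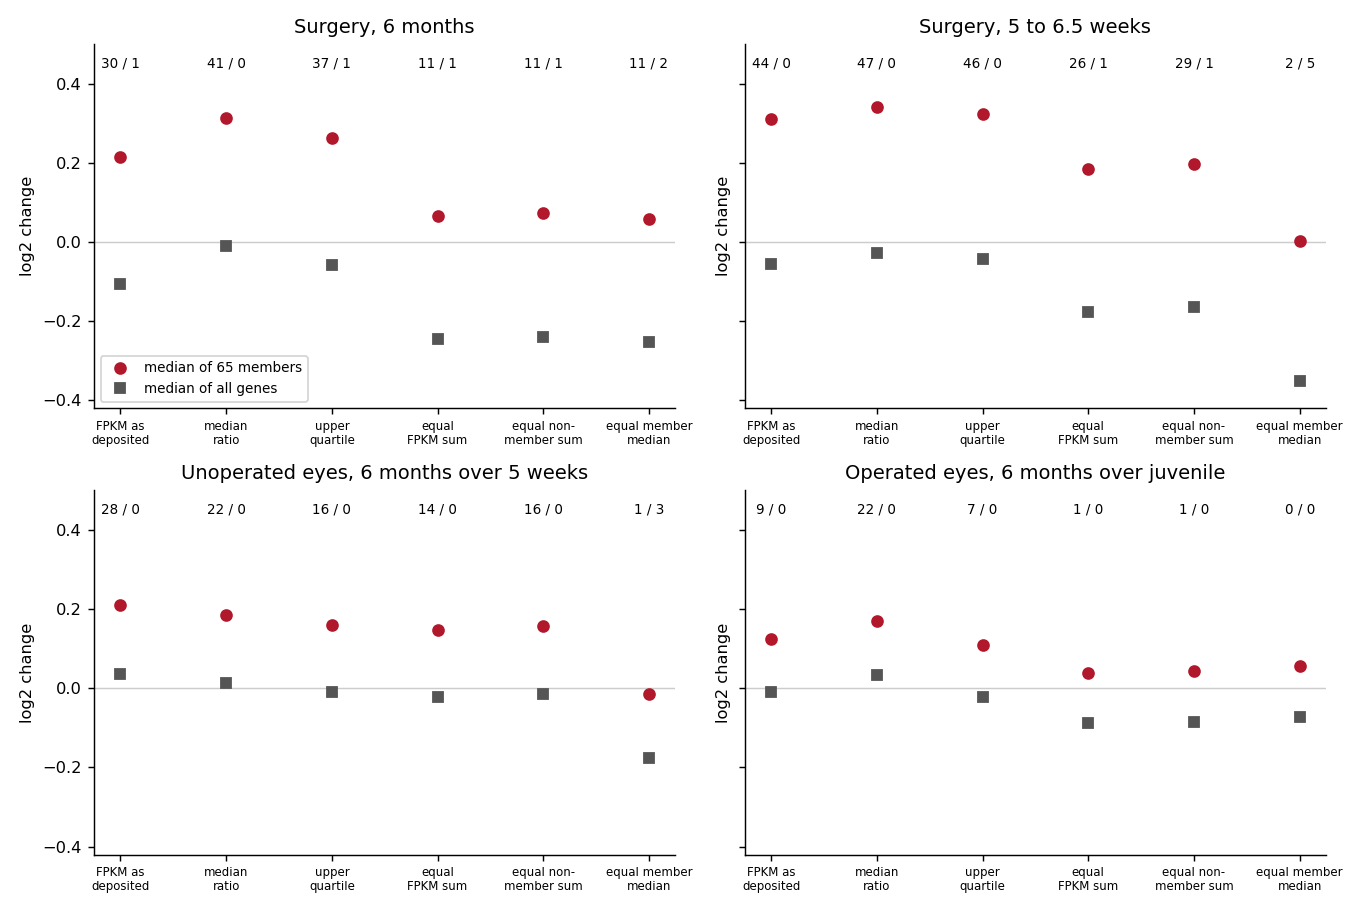
Median log2 change of the 65 genes (circles) and of all genes (squares) under 6 ways of scaling the libraries, in 4 comparisons, with the number of genes of the set that rose and fell printed above each. At 6 months the count of rises runs from 11 to 41 and in juveniles from 2 to 47, while circle and square move together by construction.

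Departures from the set were read after subtracting the median log2 value of the 65 genes from each library. At 6 months 11 genes were higher and 2 lower in operated eyes on this relative scale (10.3% and 45.9% of all genes), in juveniles 2 were higher and 5 lower (8.06% and 59.0%), and with age in unoperated eyes 1 was higher and 3 lower (2.86% and 30.1%). This scale centres the set by construction and lowers other genes where the set rose. The counts of the set therefore cannot be weighed against the shares of all genes. RPL13 at 0.33 (adjusted p = 0.00471 by limma) and RPLP1 at 0.32 (adjusted p = 0.000192 by limma) were the highest called at 6 months, followed by RPL12, RPL35, RPS16, RPL10A, RPLP0, RPS24, RPS21, RPS14 and RPL4. The place of RPL13 is that of its own symbol, since on the deposited scale its value was 0.484 alone and 0.377 with its copy added. RPL7L1 was the lowest at -0.36 (adjusted p = 0.000144 by limma), with RPL38 at -0.25 (adjusted p = 0.0348 by limma). RPL38 holds little of its joint FPKM, 93.8% of which is in a locus-numbered copy, and with the copy added its value on the deposited scale was a called rise of 0.23 at 6 months (adjusted p = 0.0145 by limma), against -0.10 alone. In juveniles RPS21 and RPLP1 were higher by 0.20 and 0.15 (adjusted p = 0.0205 and 0.0445 by limma). RPL7L1 was lower by -0.43 (adjusted p = 1.35e-05 by limma), and RPL23A, RPS4X, RPL7 and RPS20 were lower too. Copies held 98.2% of the joint FPKM of RPS20, and with them added RPS20 rose by 0.33 in juveniles on the deposited scale (adjusted p = 0.00295 by limma). With age RPL38 was higher by 0.32 (adjusted p = 0.0138 by limma), and RPLP0, RPL5 and RPL29 were lower, RPLP0 by -0.27 (adjusted p = 0.00263 by limma). On the deposited scale the age value of RPL38 was 0.54 alone and 0.22 with its copy added (adjusted p = 0.000635 and 0.0311 by limma), and RPL29 with its 3 copies added rose by 0.17 (adjusted p = 0.0364 by limma). RPL5 with its copy added rose by 0.27 with age on that scale (adjusted p = 0.0165 by limma). RPLP1 and RPS21 were thus above the set in operated eyes at both ages and RPL7L1 below it.

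Some symbols hold only a part of their protein's RNA. The table lists 59 locus-numbered symbols that its descriptions call cytosolic ribosomal proteins, and 32 of them are copies of 26 genes of the set. In 11 genes the copies held most of the joint FPKM, from 59.7% for RPL31 to 98.9% for RPL21. The other 27 belong to 14 proteins with no symbol in the set, among them the third stalk protein RPLP2, RPS19 and RPS2. Copies of near-identical sequence can share reads, which was not tested here, and the values of these genes are uncertain. Of the 59 locus-numbered symbols, 22 rose and 1 fell with surgery at 6 months (16.0% and 30.1% of all genes). In juveniles 27 rose and 0 fell (16.5% and 20.8% of all genes). The medians were 0.30 and 0.31. At an equal FPKM sum 15 of the 59 rose and 5 fell at 6 months (11.1% and 47.3% of all genes). In juveniles 15 rose and 0 fell under that scaling (11.9% and 36.1% of all genes). RPS6, the substrate of S6 kinase in the mTOR pathway, is one of the genes of the set with copies. Under its own symbol it had 34.3 to 79.7 FPKM in operated and 25.5 to 55.5 FPKM in unoperated 6-month eyes. It did not pass (log2 change 0.29, adjusted p = 0.235 by limma). With its 2 copies added, it rose by 0.29 at 6 months and 0.30 in juveniles (adjusted p = 0.00134 and 0.000987 by limma).

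Some symbols ran against their copies from library to library, most strongly RPL5, RPL27 and RPL39. Negative correlations of smaller size were seen in RPL34 (-0.48), RPL29 (-0.47), RPS26 (-0.45) and RPL37A (-0.35), and the within-group SD of RPL29 was 0.19 alone and 0.094 with its copies added. RPL27, a large-subunit protein, had 2.62 to 4.05 FPKM in 4 libraries, 72.5 to 107 in 13 and 166 to 252 in 9, while its copy LOC100356974 ran the other way (Pearson r = -0.88 over 26 libraries). All 3 operated 5-week libraries were in the highest range and 5 of 6 operated 6-month libraries in the middle one. The sum of the pair was 348 to 525.9 FPKM in every library, and its within-group SD on the log2 scale was 0.13, against 1.96 for RPL27 alone. RPL39, a small protein at the exit tunnel, had 1.08 to 9.85 FPKM in 18 libraries, 40.4 to 93.6 in 6 and 152 to 154 in 2. Its copy LOC108178831 was at 0 in 3 libraries, 1 operated 6.5-week and 2 operated 6-month ones, and the sum of that pair was not level, at 75.9 to 597 FPKM. RPL39 had the largest rise called in juveniles, 2.2 (SE 0.86, adjusted p = 0.0483 by limma), from 5.22, 2.22 and 2.49 FPKM at 5 weeks and 152, 60.4 and 54.5 FPKM at 6.5 weeks in operated eyes, against 1.08 to 5.36 FPKM in unoperated eyes. That value was -0.04 with the operated 5-week eyes alone and -0.02 with the copy added, and the call was lost with any single library left out (adjusted p = 0.0502 to 0.105 by limma).

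RPL5, the partner of RPL11 on the 5S ribosomal RNA, had a copy, LOC100341713, at 0 in 9 libraries. The copy stood at 0 to 0.03 FPKM in 10 libraries, at 141 to 262 in 9 and at 344 to 403 in 7. All 3 operated 5-week and 5 of 7 unoperated 5-week libraries were in the lowest range, as were 2 of 7 unoperated 6-month and 0 of 6 operated 6-month libraries. RPL5 itself ran against it (Pearson r = -0.94 over 26 libraries), with 158 to 337 FPKM in operated 6-month, 147 to 341 in operated 6.5-week, 397 to 434 in operated 5-week, 152 to 441 in unoperated 6-month and 261 to 428 in unoperated 5-week eyes. Its change with age in unoperated eyes was -0.57 (SE 0.256, adjusted p = 0.119 by limma) alone and 0.27 (SE 0.079, adjusted p = 0.0165 by limma) with the copy added. With surgery the pair together had values of -0.01 at 6 months and 0.15 in juveniles (adjusted p = 0.941 and 0.15 by limma). The cause of these opposite values was not tested.

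**Figure D5:**
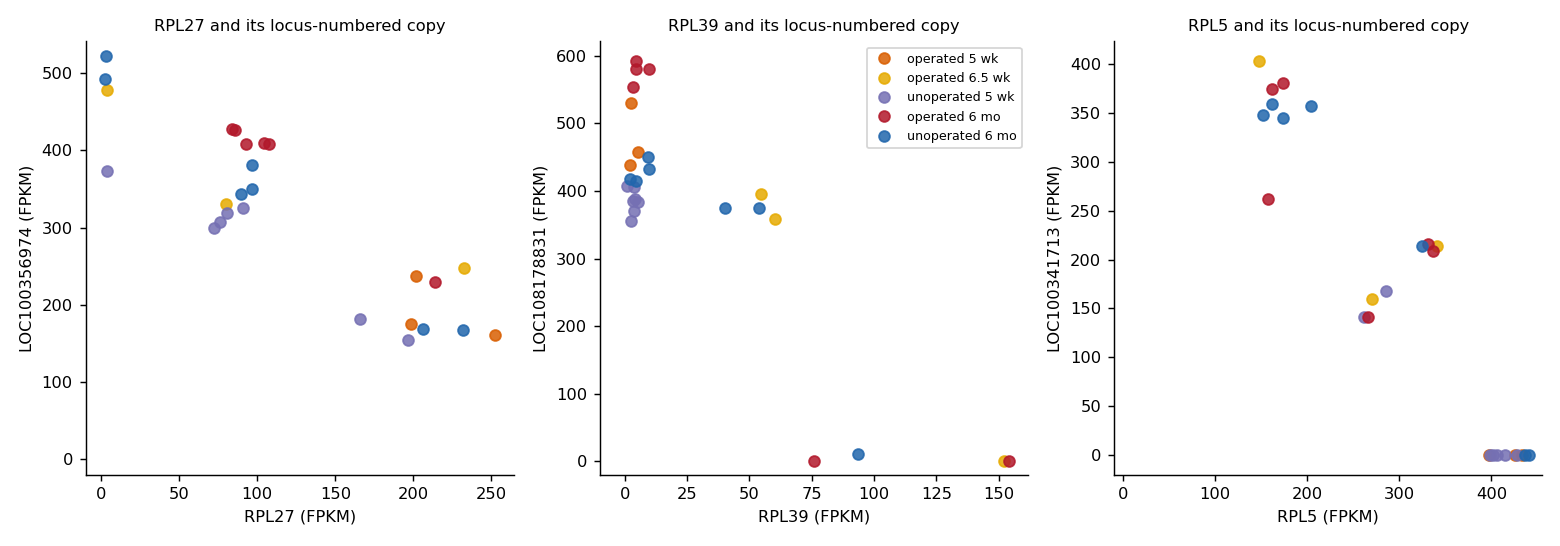
FPKM of RPL27, RPL39 and RPL5 (horizontal) against their locus-numbered copies (vertical), 1 point per library, coloured by group. The points lie in separate ranges, with RPL27 at 2.62 to 4.05, 72.5 to 107 and 166 to 252 FPKM and the RPL5 copy at 0 to 0.03, 141 to 262 and 344 to 403 FPKM.

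The spread between replicates differed widely between genes. In 53 genes the within-group SD on the log2 scale was under 0.25, a limit chosen after the values were seen, with RPL4 lowest at 0.07, and in 12 it was above, 10 of which have locus-numbered copies. In the 53, log2 changes ran from -0.21 to 0.48 at 6 months and from -0.12 to 0.51 in juveniles. These 53 genes held 30 of 30 and 43 of 44 of the rises. The test divides a change by a value that grows with this spread, so that placing follows in part by construction. In the 12 genes the log2 changes ran from -0.73 to 1.37 and from -0.25 to 2.2. RPS29 and RPL9, listed at 0 in some libraries, had values of 1.37 and 0.78 at 6 months (adjusted p = 0.221 and 0.445 by limma). RPL34 had 17.2, 32.4 and 175 FPKM in operated and 21.9, 32.01 and 182 FPKM in unoperated 6-month eyes, a log2 change of -0.73 (SE 0.524, adjusted p = 0.264 by limma). RPL32 was as low as 29.6 FPKM in a library of the unoperated 5-week group and reached 1167 FPKM in one of the operated 6.5-week group, and its single copy did not even this out (within-group SD 1.30 alone and 1.31 with the copy). RPL21 and RPS20 had values of -0.19 at 6 months and -0.25 in juveniles (adjusted p = 0.404 and 0.448 by limma). With copies added, RPS20 rose by 0.30 at 6 months and 0.33 in juveniles (adjusted p = 0.00463 and 0.00295 by limma).

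Within groups the genes moved together in part. The correlation of a gene with the median of the others, over 26 libraries after removal of group means, had a median of 0.54, and it was above 0.5 in 35 of 65 genes. The highest were RPL11 at 0.84 and RPL37 at 0.83. Points of such a correlation share library and depth, so it is a description. Across all 26 libraries the median log2 value of the set followed the FPKM sum of the table (Pearson r = 0.81). Outside the set, the genes most like that median were CHRNE (0.90), TPT1 (0.89), FCF1 (0.88), PHLDA3 (0.88) and FAM110D (0.87). After upper-quartile scaling they were TPT1, CHRNE, FAM110D, LOC100345774, which the table describes as ribosomal protein S19, and S100A6, at 0.90 to 0.92. TPT1, itself a TOP transcript, had 420, 519 and 574 FPKM in operated and 325, 342 and 414 FPKM in unoperated 6-month eyes, with no overlap.

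Other genes of the same machinery were counted in the same way, beside 16.0% of all genes rising and 30.1% falling at 6 months and 16.5% and 20.8% in juveniles. Of 4 cytosolic ribosomal proteins whose symbols fall outside the rule, 2 rose with surgery at each age. FAU, which encodes RPS30, rose by 0.26 in juveniles (adjusted p = 0.0054 by limma) and had a value of 0.04 at 6 months (adjusted p = 0.644 by limma). RPL36AL rose by 0.76 and 0.97 at 6 months and in juveniles (adjusted p = 0.0471 and 0.0152 by limma). RACK1, a scaffold on the small subunit, rose by 0.21 at 6 months (adjusted p = 0.0481 by limma) and had a value of 0.21 in juveniles (adjusted p = 0.0535 by limma). Of 16 other TOP transcripts, mostly translation factors, 7 rose and 0 fell at 6 months and 8 rose and 0 fell in juveniles, with medians of 0.18 and 0.17. Among those that rose at both ages were EEF1B2, a subunit of elongation factor 1, at 0.45 and 0.33 (adjusted p = 1.73e-06 and 0.000141 by limma), TPT1 at 0.51 and 0.61 (adjusted p = 1.92e-06 and 1.91e-07 by limma) and the intermediate filament gene VIM at 0.84 and 0.77 (adjusted p = 9.69e-06 and 3.37e-05 by limma).

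Of 70 mitochondrial ribosomal proteins, which serve another ribosome, 8 rose and 8 fell at 6 months and 7 rose and 2 fell in juveniles, with medians of -0.02 and 0.05. Here too 16.0% of all genes rose and 30.1% fell at 6 months, and 16.5% and 20.8% did in juveniles. MRPS18B rose most clearly, by 0.66 and 0.59 (adjusted p = 5.81e-06 and 2.63e-05 by limma). Of 52 ribosome assembly factors, 6 rose and 9 fell at 6 months and 8 rose and 7 fell in juveniles. TSR2, a chaperone of RPS26, fell by 0.57 and 0.35 (adjusted p = 8.55e-09 and 1.72e-05 by limma), and RIOK2, a kinase of late small-subunit assembly, fell by 0.38 and 0.27 (adjusted p = 1.61e-05 and 0.000963 by limma). Of 14 RNA polymerase I genes, whose products transcribe ribosomal RNA, 1 rose and 3 fell at 6 months and 2 rose and 3 fell in juveniles. UBTF fell by 0.39 and 0.33 and TAF1B by 0.46 and 0.34 (adjusted p = 0.00116, 0.00554, 0.000214 and 0.00439 by limma), while POLR1D rose by 0.32 and 0.35 (adjusted p = 0.00275 and 0.0016 by limma).

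Of 15 regulators of ribosome production, 2 rose and 6 fell at each age. MYC, a transcription factor that drives ribosome production, rose by 2.23 at 6 months and 1.88 in juveniles (adjusted p = 1.85e-10 and 4.22e-09 by limma), and MYCN fell by 0.87 and 0.69 (adjusted p = 1.93e-06 and 4.6e-05 by limma). EIF4EBP1, an inhibitor of translation under mTOR control, rose by 1.10 and 0.62 (adjusted p = 2.69e-07 and 0.000495 by limma). Of 7 genes of the response to unassembled ribosomal proteins, 2 rose and 2 fell at 6 months and 2 rose and 0 fell in juveniles. CDKN1A, an inhibitor of the cell cycle, rose by 1.61 and 0.96 (adjusted p = 0.000109 and 0.0126 by limma), and HUWE1, a ubiquitin ligase, fell by 0.68 at 6 months (adjusted p = 4.54e-05 by limma) and had a value of -0.21 in juveniles (adjusted p = 0.166 by limma). With age in unoperated eyes 4 TOP transcripts rose and 1 fell, 6 mitochondrial ribosomal proteins rose and 0 fell, and 4 assembly factors rose and 1 fell, beside 11.4% of all genes rising and 9.46% falling.

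Markers of several cell types moved with surgery, and the shares of all genes called in each comparison are those given above. All 9 measured macrophage markers rose at both ages, and their summed level was 301 to 767 FPKM in operated 6-month, 353 to 860 in operated juvenile, 91.8 to 256 in unoperated 6-month and 72.0 to 177 in unoperated 5-week eyes. All 4 neutrophil markers rose at both ages, with sums of 57.5 to 106 FPKM in operated 6-month, 36.1 to 80.5 in operated juvenile, 0.86 to 4.36 in unoperated 6-month and 0.92 to 7.78 in unoperated 5-week eyes. Of 7 proliferation genes, 7 rose at 6 months and 6 in juveniles, and 7 fell with age in unoperated eyes. Their sums were 60.0 to 125 FPKM in operated 6-month, 39.5 to 89.8 in operated juvenile, 4.74 to 6.81 in unoperated 6-month and 20.8 to 39.9 in unoperated 5-week eyes. Of 7 pigment cell genes 7 fell at 6 months and 6 in juveniles, and of 6 ciliary epithelium genes 5 fell and 1 rose at each age. Summed ciliary epithelium levels were 1074 to 2193 FPKM in operated 6-month, 947 to 1717 in operated juvenile, 2656 to 3611 in unoperated 6-month and 2638 to 4599 in unoperated 5-week eyes. All 3 T cell and both plasma cell markers rose in juveniles and 0 of these 5 passed at 6 months, and by the interaction term 0 of 5 differed between the ages (adjusted p = 0.176 to 0.683 by limma). Of 5 lens and 2 photoreceptor genes 0 passed with surgery or with age in unoperated eyes, and of 5 smooth muscle genes 3 fell at 6 months, 2 fell and 1 rose in juveniles, and 3 rose with age in unoperated eyes. With age in unoperated eyes 4 macrophage, 2 T cell and 2 plasma cell markers also rose, and 3 pigment cell genes fell. The part of these cell types in the ribosomal protein values was not tested.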

How the data were processed

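RNA-seq of 26 iris and ciliary body libraries, built from total RNA per the labels, was taken from a deposited table in FPKM per transcript, the unit in its file header. Tools named in the submitters' processing notes are Bowtie2 2.2.5, RSEM 1.2.12, HISAT2 2.0.4 and HISAT, and no genome build is named in them. Without read counts the depth behind each FPKM value cannot be given, nor any counting interval. FPKM of 16725 transcripts were summed per symbol, and the 65 genes had 75 transcripts.

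Tests ran in R 4.3.3 with limma 3.58.1 on log2(FPKM + 0.5), which understates changes of low genes. Each of the 5 groups had its own mean in 1 fit, with a mean-variance trend, robust moderation and Benjamini-Hochberg adjustment over all 12948 genes. A filter at 1 FPKM in 3 libraries removed 0 genes. The fit was checked on simulated data. Samples were not paired. Alternatives were other pseudocounts, filters, scalings, sample sets and covariates, and the addition of locus-numbered copies, which was chosen after seeing the data.

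The genes and all lists were chosen with earlier results of these data known. Genes were named by role (the markers RPL8, RPL10A, RPL13 and RPS7, the stalk, the 5S carriers, RPS3, RPS6, RPL3, RPL4, RPL10 and the paralogs), as the 3 most and 3 least abundant, and as the 3 largest changes in either direction of a comparison. Others, such as RPL12, RPL37 and RPL38, were named after their values were seen. A few genes are counted but not reported here by name.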

Additional observations from a re-analysis of the deposited data

Results flagged for a closer look

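A sample far from the others of its group (gap to the nearest over the group's range, Dixon's 95% limit) was found in 8 of 87 groups of 6 or 7 libraries, where chance alone flags about 1 in 20. Unoperated 6-month replicate 1 was the highest of its group in 4 of them: 572 FPKM for RPL10A (next 469), 223 FPKM for RPL13 (next 190), 940 FPKM for RPS7 (next 830), and 7.685% for the share of all ribosomal protein genes in the FPKM sum (next 7.069%). Its summed level was 34970 FPKM, and it is the library through which the 6-month groups overlap in that sum. In the share they also overlapped through operated replicate 6 at 6.949%, below unoperated replicates 2, 5 and 7 (7.069%, 7.0% and 6.976%).

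In the operated 6-month group RPL27 was at 214 FPKM in replicate 5 (next 107) and RPL34 at 175 FPKM in replicate 3 (next 35.2). In the unoperated 5-week group RPL34 was at 29.6 FPKM in replicate 6 (next 23.5) and RPL21 at 8.45 FPKM in replicate 7 (next 5.22). RPL27, RPL34 and RPL21 have locus-numbered copies, whose part in these values was not tested. The gap rule can miss libraries that depart together, as operated 6-month replicates 4 and 6 did in several genes, upward in some and downward in others. In RPL13 they had 328 and 294 FPKM, against 222 to 254 in the other operated 6-month libraries. RPL35 had 766 and 789 FPKM in them, against 505 to 543.5. In RPL24 they had 251 and 242 FPKM, against 402 to 439, and in RPS25 289 and 267, against 449 to 478. Their median-ratio scaling factors were 0.921 and 0.921, against 0.968 to 0.995. A fit without both was not made, so their joint part in the 6-month calls was not tested.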

How the results depend on the processing

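Counts of rises moved with scaling, and so did the share of all genes that rose. At 6 months it was 16.0% as deposited, 11.1% at an equal FPKM sum, 10.3% at an equal member median and 21.5% with median-ratio scaling. In juveniles it was 16.5%, 11.9%, 8.06% and 18.3% in the same order. With age in unoperated eyes it was 11.4%, 6.76% and 2.86% in the first 3. A count with no share given for its setting here or above is a description only. Of the set, 11 genes rose at 6 months with an equal FPKM sum, with an equal sum over other genes and with an equal member median. In juveniles 26, 29 and 2 did. With age in unoperated eyes 14, 16 and 1 did, and 16 with upper-quartile scaling. With age in operated eyes 1, 1 and 0 did, 22 with median-ratio scaling, 5 without the 3 late-numbered 5-week samples, 4 with lens and photoreceptor covariates, and 0 with only the groups compared. Covariates gave 8 rises with age in unoperated eyes. Without libraries over 1000 FPKM of CRYAA, 11 rose in juveniles and 3 with age in unoperated eyes, and 2 fell at 6 months. Operated 5-week eyes alone gave 22 rises. Falls at 6 months were 0 with median-ratio scaling and with only the groups compared, and 2 with an equal member median. Falls in juveniles were 1, 1 and 5 under the equal sum, equal other sum and equal member median, and 3 with age in unoperated eyes under the last.

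The median log2 change at 6 months was 0.31 with median-ratio scaling and 0.067, 0.073 and 0.059 with the equal sum, equal other sum and equal member median; in juveniles it was 0.184, 0.196 and 0.003 with the last 3. With an equal member median it was -0.014 for age in unoperated eyes and 0.076 for the interaction. Under that scaling the sign also turned for RPL10A (-0.009), RPL11 (-0.016), RPL23A (-0.031) and RPS3 (-0.030) with age in unoperated eyes, and for RPL11 (-0.039), RPL23A (-0.192), RPL3 (-0.045), RPS3 (-0.088) and RPS7 (-0.057) in juveniles. With copies added RPL27 (0.24) and RPL5 (0.27) turned with age, and RPL39 (-0.022) and RPS20 (0.33) in juveniles; RPL39 was -0.038 with operated 5-week eyes alone.

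Leaving out 1 library at a time gave 27 to 33 rises and 0 to 2 falls at 6 months, 41 to 45 and 0 in juveniles, 22 to 32 and 0 to 1 with age in unoperated eyes, 1 to 14 and 0 with age in operated eyes, and 0 to 1 falls in the interaction. The falls differed without operated 6-month replicate 3 (2), 4 (0) or 6 (0) at 6 months and without unoperated 6-month replicate 3 or 6 (1) with age, and in the interaction without operated 6-month replicate 3 (1). The other alternatives, pseudocounts of 0.1 and 1, filters and the highest transcript, kept these counts within 1.5 times, except as given. No paired analysis was possible because replicate numbers here follow accession order and no title number occurs in more than 1 iris sample. The shares of all genes called with single libraries left out are not reported here, so those counts are a description. The causes of the shifts in the counts were not tested.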
